A study of Mus musculus with 8 samples.

Results

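The genes examined here are 9 components of transforming growth factor beta (TGF-beta) signalling in mouse white adipose tissue. They are the ligand genes Tgfb1, Tgfb2 and Tgfb3, the receptor genes Tgfbr1, Tgfbr2 and Tgfbr3, the feedback genes Smad7 and Skil, and the activin subunit gene Inhbb. They were chosen by name, and all 9 were found among 37046 gene features and passed the filter on low counts. The tissue came from wild-type female C57BL/6J mice, an inbred strain. Endostatin libraries came from mice injected in the tail vein with 50 mg/kg endostatin, and control libraries from mice injected with phosphate-buffered saline (PBS) instead. In both groups the tissue was taken 2 h later, during the day, and food was withheld in between. Each group had 4 libraries of total RNA depleted of ribosomal RNA, 2 in each of 2 batches, and the labels do not give the age of the mice. The stated number is 4 female mice, which may mean 4 in each group or 4 in all, and no label links libraries to animals. Every n below therefore counts libraries, and the spread behind SDs, SEs and p-values is that between libraries, part of which may be technical.

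TGF-beta ligands are secreted in a latent complex with their own propeptide, and integrins and proteases release them. The freed dimer binds the type II receptor TGFBR2, which phosphorylates the type I receptor TGFBR1, and that kinase in turn activates SMAD2 and SMAD3. The co-receptor betaglycan, product of Tgfbr3, presents ligand and is needed most for TGF-beta 2. SMAD7 and SKIL (SnoN) restrain the pathway, and both genes are themselves targets of it. In adipose tissue TGF-beta is known for restraining adipocyte differentiation and for driving matrix production by fibroblasts. Activin B, a dimer of the Inhbb product, signals through related receptors, among them ACVR1C (ALK7), which is abundant in adipocytes. Endostatin is a fragment of collagen XVIII best known for slowing the growth of blood vessels.

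Total estimated counts ran from 17197721 to 23786594 in endostatin libraries and from 15826783 to 19221886 in control libraries. A count of 0 would allow up to 3 counts, or 0.126 to 0.19 CPM (counts scaled to a library total of 1000000) in a library, for counting error only. Every member had between 142 and 8527 counts in each library, far above that floor. The labels call the tissue epididymal although the mice are female. All 8 of 8 adipocyte markers were detected, and they summed to 38677 to 46964 TPM (abundance per transcript length, scaled to 1000000 per library) in endostatin libraries and 26313 to 52345 TPM in control libraries. Libraries differed in transcripts of neighbouring organs. Endostatin 4 (713 TPM) and control 3 (1136 TPM) had raised sums of 13 oviduct and uterus markers, which stayed at 37.5 to 90.8 TPM elsewhere. For 8 markers of skeletal muscle the raised libraries were control 4 (424 TPM) and control 1 (213 TPM), and the remaining 6 had 33.4 to 106 TPM. All 11 hepatocyte markers had a higher mean after endostatin, with sums of 326, 487, 21.5 and 942 TPM in endostatin 1 to 4 and 13.6 to 135 TPM in controls. The part of these tissues in the members' values was not tested, apart from the fits without libraries given below. In bulk tissue, fewer cells of a type and less RNA per cell cannot be told apart.

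Coding sequence distinguishes a pair of annotated forms in Tgfb2 and in Tgfbr2, and the sequences are shown because the levels of these genes below are sums over such forms. In each gene the forms differ by a coding exon. In Tgfb2 the exon has 84 bases (chr1:186690721-186690804, minus strand, GRCm38, GENCODE M21) and adds 28 residues to the propeptide. In Tgfbr2 it has 75 bases (chr9:116158271-116158345, minus strand, GRCm38) and adds 25 residues to the extracellular part of the receptor. In the lines below, capitals mark the exon, and the lower-case letters are the 15 bases on either side in the spliced transcript.
Tgfb2-206: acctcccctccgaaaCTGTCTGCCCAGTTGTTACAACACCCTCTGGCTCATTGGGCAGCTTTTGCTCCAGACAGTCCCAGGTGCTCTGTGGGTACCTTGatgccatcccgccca
Tgfb2-201: acctcccctccgaaaatgccatcccgccca
Tgfbr2-202: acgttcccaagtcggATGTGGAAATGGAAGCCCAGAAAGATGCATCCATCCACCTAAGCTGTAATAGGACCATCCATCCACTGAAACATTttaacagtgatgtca
Tgfbr2-201: acgttcccaagtcggttaacagtgatgtca

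The ligands also differed in the letters around their gene starts. RefSeq windows (GRCm38.p6, 250 bases before to 50 after the start) were matched for 5 of the 9 members, namely Tgfb1, Tgfb2, Tgfbr1, Tgfbr2 and Inhbb. Any member window on a chromosome that was set aside is not reported here. The windows of Tgfb1 and Tgfb2, the ligands with the highest and the lowest level, are shown for contrast. Tgfb1 (chr7:25686752-25687051, plus strand) had 77% G and C and Tgfb2 (chr1:186705940-186706239, minus strand) had 54.3%. Capitals mark CAGAC, the box bound by SMAD3 and SMAD4, searched on both strands.
Tgfb1: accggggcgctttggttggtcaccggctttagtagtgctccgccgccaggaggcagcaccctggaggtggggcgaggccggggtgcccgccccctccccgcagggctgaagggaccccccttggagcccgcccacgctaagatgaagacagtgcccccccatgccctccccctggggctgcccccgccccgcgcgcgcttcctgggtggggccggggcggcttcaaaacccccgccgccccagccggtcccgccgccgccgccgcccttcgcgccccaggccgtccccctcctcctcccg
Tgfb2: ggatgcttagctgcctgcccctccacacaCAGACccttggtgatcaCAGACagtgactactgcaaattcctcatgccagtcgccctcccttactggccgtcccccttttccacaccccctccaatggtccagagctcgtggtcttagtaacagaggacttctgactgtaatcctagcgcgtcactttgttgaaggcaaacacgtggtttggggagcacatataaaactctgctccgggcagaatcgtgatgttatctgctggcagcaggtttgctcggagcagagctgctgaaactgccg
The Tgfb2 window held the box 2 times and the letters TATAAA, and the Tgfb1 window held neither. CAGAC occurs in 49.6% and TATAAA in 13.6% of all 32851 such windows, so each match is a description only.

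Levels were set side by side in TPM, which is per length. The receptors led, with the co-receptor Tgfbr3 (ENSMUSG00000029287) at 142 ± 17 TPM in endostatin libraries and 130 ± 21 TPM in control libraries (SD, n = 4 each). Tgfbr2 (ENSMUSG00000032440) followed at 107 ± 17 and 91.3 ± 19.5 TPM in endostatin and control libraries. The type I receptor Tgfbr1 (ENSMUSG00000007613) stood far lower, at 14.0 ± 1.4 TPM in endostatin libraries and 16.0 ± 3.9 TPM in control libraries. Among the ligands the order was Tgfb1 (ENSMUSG00000002603), Tgfb3 (ENSMUSG00000021253) and Tgfb2 (ENSMUSG00000039239). Tgfb1 had 43.5 ± 6.3 TPM after endostatin and 38.0 ± 3.0 TPM in controls, and Tgfb2 had 6.72 ± 1.91 and 5.84 ± 1.03 TPM in the same groups. Endostatin 2, the highest library of Tgfb1, included 8.31 TPM of the short transcript Tgfb1-205, which rests on 6 estimated reads. On coding transcripts Tgfb1 had 37.3 ± 4.3 TPM after endostatin and 33.2 ± 2.7 TPM in controls.

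The order of levels over all 8 libraries was Tgfbr3, Tgfbr2, Tgfb1, Inhbb, Tgfb3, Smad7, Tgfbr1, Skil and Tgfb2. A clear step lay between Tgfbr2 (lowest library 77.7 TPM) and Tgfb1 (highest 51.6 TPM). Tgfb1 (lowest 35.4 TPM) and Inhbb (highest 35.1 TPM) were narrowly apart, but not on coding transcripts, where Inhbb (33.7 TPM) stood above Tgfb1 (30.8 TPM) in control 3. Tgfbr3 was above Tgfbr2, and Tgfbr1 above Skil, in 8 of 8 libraries, although the ranges overlapped. On coding transcripts Tgfbr2 stood above Tgfbr3 in every library but control 4. Inhbb was above Tgfb3, Tgfb3 above Smad7, and Skil above Tgfb2 in 7 of 8 libraries. The exception for Skil and Tgfb2 was control 4, where Skil (5.96 TPM) stood above Tgfb2 (2.61 TPM) on coding transcripts. Smad7 (ENSMUSG00000025880), the inhibitory Smad, and Tgfbr1 did not differ beyond their spread, with Smad7 above in 3 of 8 libraries.

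**Figure D1:**
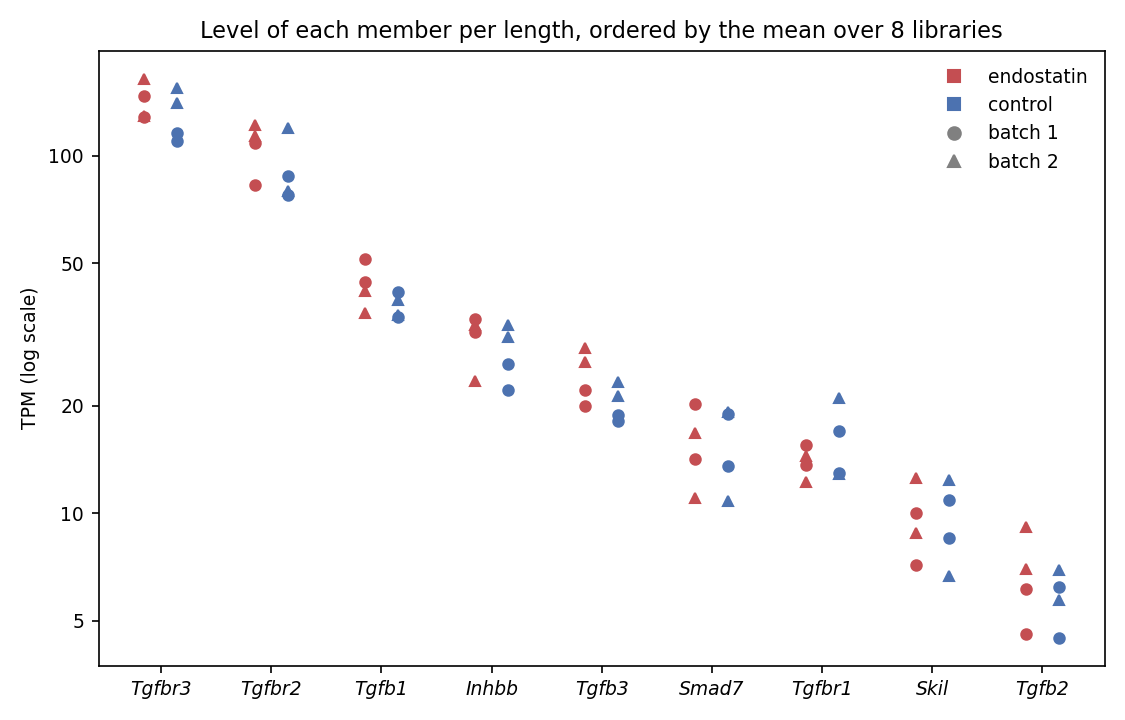
Level of each member in TPM on a log axis for the 4 endostatin and 4 control libraries, with batch given by the marker shape. Tgfbr3 and Tgfbr2 stand at 77.7 TPM or more in every library, and Tgfb2 at 4.49 to 9.17 TPM.

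The summed level of Tgfbr3 held much RNA that is not annotated as coding. Of its 4 transcripts, 2 are coding and gave 58.0% of its TPM on average. The retained-intron transcript Tgfbr3-204 gave 24.0% to 34.3%, and the processed transcript Tgfbr3-203 gave 9.66% to 16.2%. Counting coding transcripts alone, Tgfbr2 (99.0 TPM over 8 libraries) stood above Tgfbr3 (78.5 TPM). By library the exception was control 4, with 79.8 TPM of Tgfbr2 and 82.0 TPM of Tgfbr3. In Tgfb2 the 2 coding transcripts gave 59.9% of TPM on average, but 37.6% to 92.4% by library. They had 3.73 ± 0.86 TPM in endostatin libraries and 3.49 ± 1.12 TPM in control libraries (SD, n = 4 each). The other Tgfb2 forms are short (359 to 898 bases) and rest on at most 46.7 estimated reads each over all 8 libraries. Tgfb2-203 gave 22.0% of TPM on average from 18 reads, whereas Tgfbr3-204 rests on 4075 reads. The other members were at 86.3% to 100% coding on average, and Tgfb3 and Inhbb had 1 transcript each.

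Of the coding forms shown above, the one without the exon had the higher mean in both genes. Tgfbr2-201, without the exon, had 57.4 to 92.4 TPM, and Tgfbr2-202, with it, had 19.2 to 32.7 TPM. The share of Tgfbr2-202 was steady, at 24.0% to 27.3% of the gene in the 8 libraries. Tgfbr2-202 is annotated with 8092 bases and Tgfbr2-201 with 3476, so reads outside the 75-base exon also set this share. Tgfb2-206, with the exon, was above 0 in 7 of 8 libraries at up to 2.12 TPM, and Tgfb2-201 had 1.82 to 4.14 TPM. In control 2 the form with the exon was the higher of the pair, at 1.89 TPM against 1.82 TPM. The estimate for Tgfb2-206 rests on 235.5 estimated reads over all 8 libraries, against 1254 for Tgfb2-201, and Salmon's division of shared reads adds error to both.

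**Figure D2:**
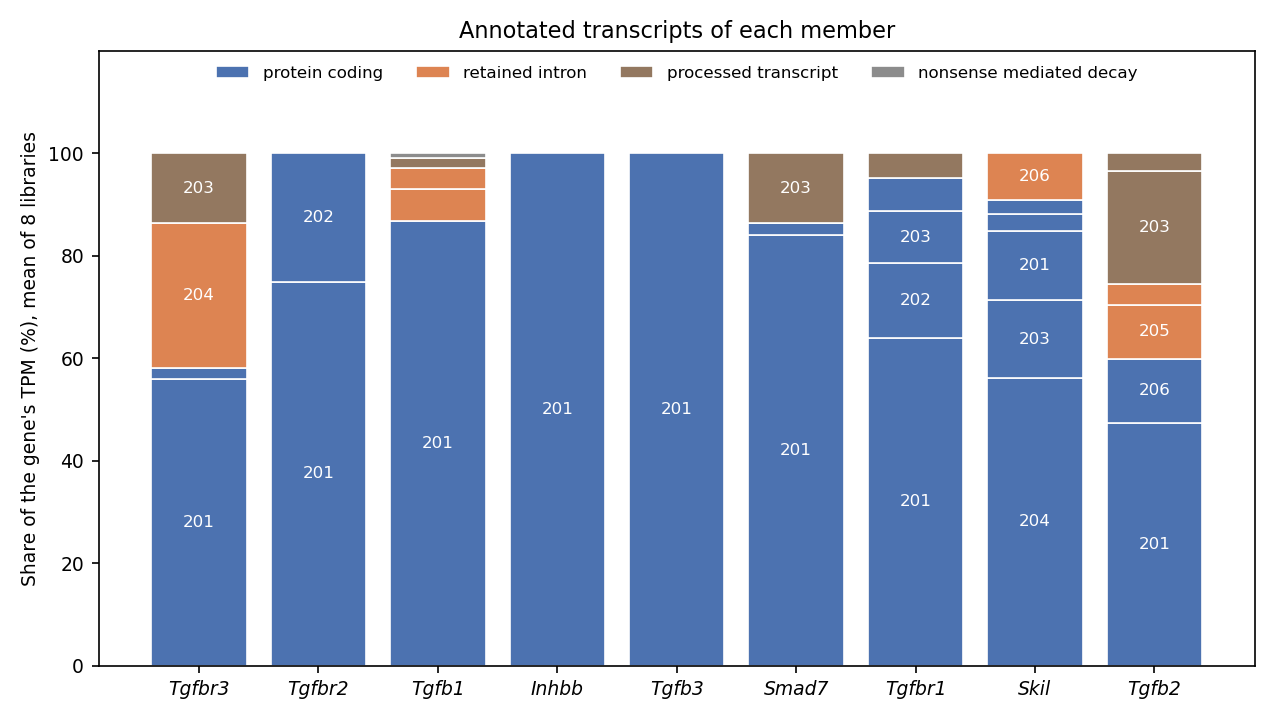
Mean share of each member's TPM given by each annotated transcript over 8 libraries, coloured by transcript type, with transcript numbers printed in the larger segments. Coding transcripts give 58.0% of Tgfbr3 and 59.9% of Tgfb2, where the other forms of Tgfb2 rest on few reads.

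The comparison of endostatin with control libraries asked whether acute endostatin changes these genes. No member passed the test. In edgeR's quasi-likelihood fit with a batch term, 0 of 9 members had an adjusted p under 0.05, where 0% of 15184 genes were called higher and 0% lower, and DESeq2 called 3 genes higher and 1 lower, none of them a member (lowest adjusted p of a member over all alternatives 0.636). Only 1 member, Tgfb3, had an unadjusted p under 0.05 with a higher level, against 2.3% of all genes tested with a higher level at that p and 0.896% with a lower one. In no member were the groups separate, against 0.942% of all genes with every endostatin library above every control library and 0.698% with the reverse. Fitted log2 fold changes, endostatin minus control, were positive in 7 members and negative in 2, with a median of 0.11. Over all genes tested, 46.6% were positive and the median was -0.01. Fold changes below are on the log2 CPM scale ± SE from that fit.

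Tgfb3, the ligand gene expressed mainly in mesenchymal cells, had 37.6, 42.4, 49.0 and 52.4 CPM in endostatin 1 to 4. It had 37.4, 37.3, 38.4 and 42.2 CPM in control 1 to 4. Endostatin 3 and 4, both of batch 2, lay well above all controls, endostatin 2 just above the highest control, and endostatin 1 among the controls. The fitted log2 fold change was 0.22 ± 0.09, with a 95% interval from 0.0089 to 0.42 (unadjusted p = 0.0429, adjusted p = 1.00 in edgeR's quasi-likelihood test). The values within batches were 0.10 in batch 1 and 0.33 in batch 2, and their difference of 0.23 ± 0.17 did not pass (interaction adjusted p = 0.997). Leaving out endostatin 4 and control 3, where oviduct and uterus markers were raised, lowered the log2 fold change to 0.14 (unadjusted p = 0.145). The adjusted p ran from 0.636 to 1.00 over 23 alternatives.

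Markers of some other cells also had higher means after endostatin. Higher means were found in 7 of 8 lymphocyte and 6 of 7 mesothelium markers. They were found in 1 of 13 oviduct and uterus and 0 of 8 skeletal muscle markers. All 8 macrophage markers had a higher mean after endostatin. Their sums were 657, 734, 1133 and 1106 TPM in endostatin 1 to 4 and 525 to 781 TPM in controls. All 8 fibroblast and progenitor markers likewise had a higher mean, with sums of 1963 to 2810 TPM after endostatin and 1664 to 2157 TPM in controls. Endostatin 4, the library with the highest Tgfb3, had the highest fibroblast sum (2810 TPM). Control 4, the control with the highest Tgfb3, had the lowest fibroblast sum (1664 TPM). Endostatin 3 and 4, the libraries with the most Tgfb3, had the highest macrophage sums. Control 2, the control with the lowest Tgfb3 (37.3 CPM, beside 37.4 CPM in control 1), had the highest macrophage sum among controls (781 TPM). No marker of either list was at 0 throughout, and their part in the Tgfb3 values was not tested. The gene with the profile nearest to Tgfb3 was Ap5z1, a subunit of an endosomal adaptor complex. Its log2 CPM, centred over the 8 libraries, differed from that of Tgfb3 by a root mean square of 0.054, where the median over 9762 protein-coding genes was 0.257. Sema4a, a semaphorin, and Syt11, a synaptotagmin, came next, at 0.057 and 0.07.

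Tgfb1, the ligand gene typical of immune and endothelial cells, had 47.7, 49.7, 48.1 and 37.3 CPM in endostatin 1 to 4 and 42.6, 47.7, 34.5 and 44.7 CPM in control 1 to 4. The lowest library of each group was the one with raised oviduct and uterus markers. The log2 fold change was 0.11 ± 0.12, and it was 0.11 in batch 1 and 0.11 in batch 2. It was 0.03 without endostatin 3 and 0.19 without control 4. The 95% interval corresponds to a fold between 0.892 and 1.30.

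Tgfb2, the ligand that depends most on betaglycan, had 12.0, 8.99, 9.19 and 12.4 CPM in endostatin 1 to 4 and 8.45, 9.68, 12.1 and 8.88 CPM in control 1 to 4. High and low values occurred in both groups. The highest library of each group, with endostatin 1 close below endostatin 4, was the one with raised oviduct and uterus markers. Their part was not tested. Its log2 fold change was 0.12 ± 0.18, with 0.21 in batch 1 and 0.04 in batch 2. At its level, below the other members, the interval covered folds from 0.822 to 1.44.

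Inhbb, which encodes the beta B subunit of activin B and is known from adipocytes, had 77.4, 86.0, 79.7 and 53.9 CPM in endostatin 1 to 4. It had 69.2, 56.1, 71.0 and 78.5 CPM in control 1 to 4. Both endostatin libraries of batch 1 lay above both of their controls. In batch 2 endostatin 3 narrowly lay above both controls, and endostatin 4 lay below both. The log2 fold changes were 0.38 in batch 1 and -0.16 in batch 2, a difference of -0.54 ± 0.29, the largest in size among the members (interaction unadjusted p = 0.103, edgeR adjusted p = 0.997). Over both batches the log2 fold change was 0.11 ± 0.17 (ENSMUSG00000037035). It was 0.26 without endostatin 4 (edgeR unadjusted p = 0.0638) and -0.0046 without control 2. Without both endostatin 4 and control 3, where oviduct and uterus markers were raised, it was 0.26 (edgeR unadjusted p = 0.0691). Acvr1c, its receptor gene on adipocytes, had 328 ± 22 CPM after endostatin and 307 ± 114 CPM in controls, where control 3 alone stood at 151 CPM. Control 3 also had the lowest sum of adipocyte markers (26313 TPM), whose part was not tested.

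**Figure D3:**
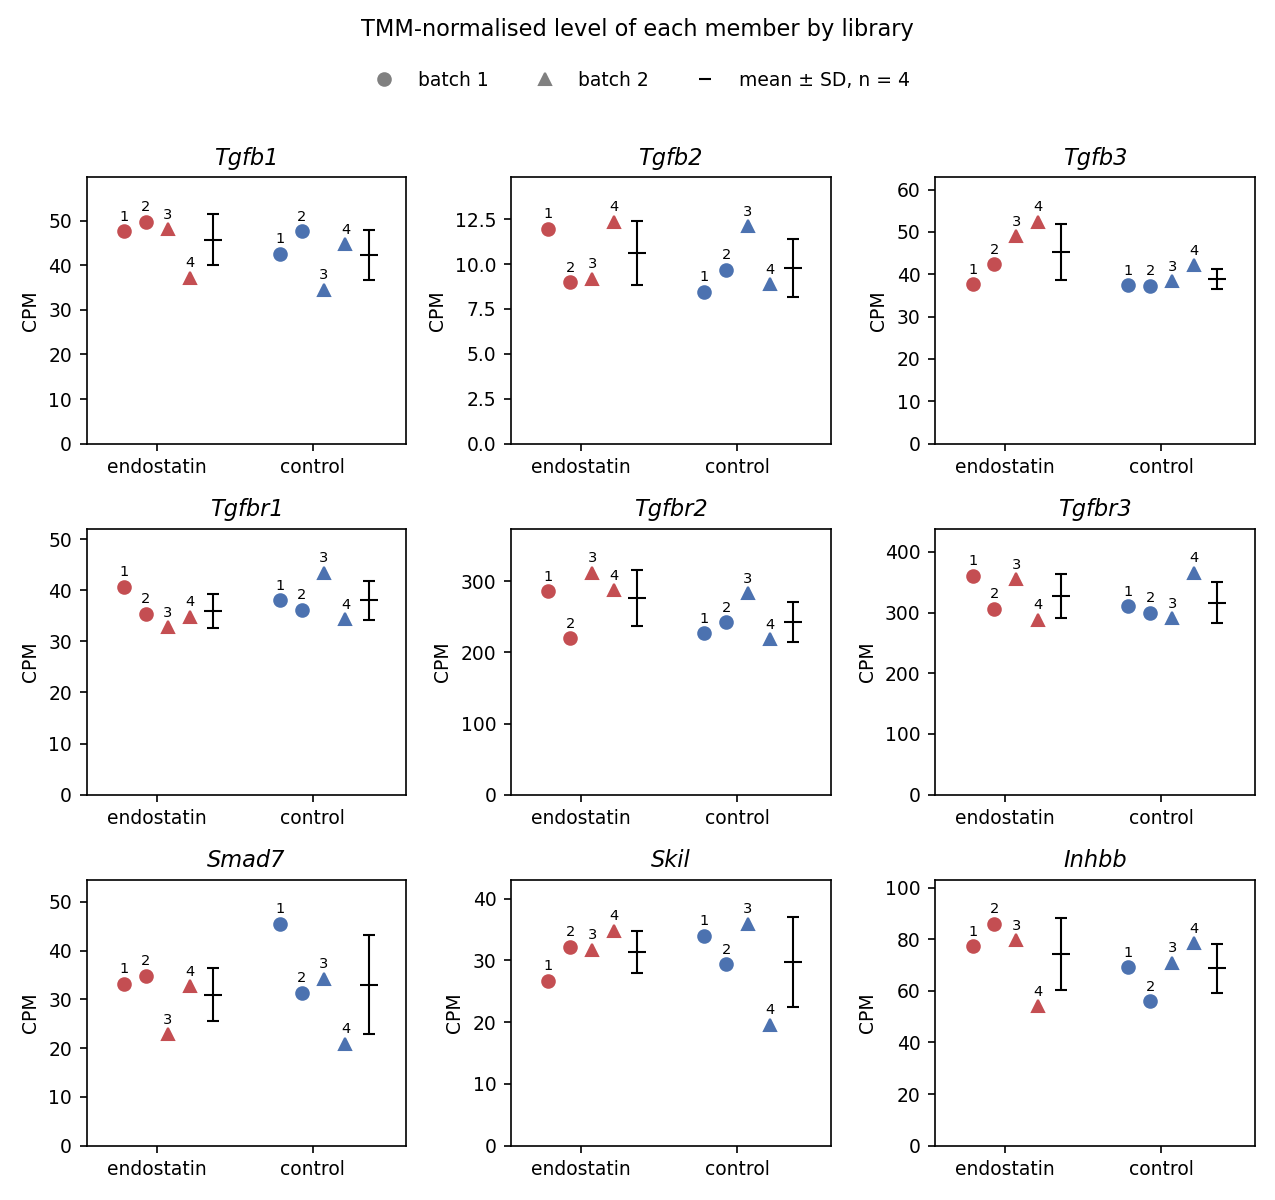
TMM-normalised CPM of each member in each library, numbered by replicate and shaped by batch, with mean ± SD (n = 4) beside each group and axes starting at 0. The groups overlap in each of the 9 genes.

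Tgfbr1 and Tgfbr3 varied least among the members, with SDs of 0.13 and 0.14 in log2 CPM over the 8 libraries. Tgfbr2, the ligand-binding kinase, had 286, 220.2, 312 and 287 CPM in endostatin 1 to 4 and 227, 242, 283 and 218 CPM in control 1 to 4. Of the endostatin libraries, 3 lay above all controls and endostatin 2 lay second from the bottom of the 8. The log2 fold change was 0.18 ± 0.13, with 0.11 in batch 1 and 0.26 in batch 2. Tgfbr3 had 361, 306, 355 and 288 CPM in endostatin 1 to 4 and 310.3, 299.6, 290.4 and 365 CPM in control 1 to 4, a log2 fold change of 0.05 ± 0.13. Its highest and lowest libraries were a control and an endostatin library, both in batch 2.

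Tgfbr1, the signalling kinase, had 40.7, 35.4, 32.7 and 34.8 CPM in endostatin 1 to 4 and 38.0, 36.2, 43.4 and 34.4 CPM in control 1 to 4. Control 3 was the highest library and endostatin 3 the lowest. The log2 fold change was -0.08 ± 0.11, with 0.04 in batch 1 and -0.20 in batch 2. It was -0.22 when the average transcript length of each library entered the fit (unadjusted p = 0.153). The coding transcript Tgfbr1-202 had 1.18 ± 1.02 TPM after endostatin and 3.10 ± 0.50 TPM in controls (SD, n = 4 each), and Tgfbr1-205 had 1.51 ± 0.56 and 0.447 ± 0.677 TPM in the same groups. Both were named after their values were seen, and they rest on 513.7 and 148.1 estimated reads over all 8 libraries. These forms share most of their exons, so the division of reads between them is uncertain, and no test was made of single transcripts.

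Smad7, the inhibitor that targets TGFBR1 for degradation, varied most among the members, with an SD of 0.36 in log2 CPM over the 8 libraries. It had 33.2, 34.9, 22.9 and 32.7 CPM in endostatin 1 to 4, inside the control values of 45.5, 31.4, 34.3 and 20.9 CPM in control 1 to 4. The highest and the lowest library were both controls. The log2 fold change was -0.08 ± 0.20, with -0.17 in batch 1 and 0.01 in batch 2, and the 95% interval covered folds from 0.685 to 1.30. Bcor, a corepressor, had the profile nearest to Smad7, at a root mean square difference of 0.162 where the median was 0.387, followed by D16Ertd472e (0.177) and the polarity gene Mpp5 (0.179).

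Skil, whose product SnoN holds Smad complexes in a repressed state, had 26.7, 32.2, 31.7 and 34.8 CPM in endostatin 1 to 4 and 34.0, 29.4, 35.9 and 19.6 CPM in control 1 to 4 (ENSMUSG00000027660). Control 4 stood lowest, as it did in Smad7, and it had the highest sum of skeletal muscle markers of the 8 libraries (424 TPM). Control 1, with the next highest sum (213 TPM), had 34.0 CPM of Skil and the highest Smad7 (45.5 CPM). The part of muscle in these values was not tested. The log2 fold change of Skil was 0.08 ± 0.20 over all libraries and -0.11 without control 4 (unadjusted p = 0.373). Within batches it was -0.10 in batch 1 and 0.26 in batch 2. Among the pairs of members, Smad7 and Skil lay at a root mean square difference of 0.255 from each other, and the nearest pair was Tgfb1 and Tgfbr3 at 0.152.

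Over the 9 members, 4 had the same sign in both batches, all positive (Tgfb1, Tgfb2, Tgfb3 and Tgfbr2). Of all genes tested, 47.7% had the same sign in both batches and 22.6% were positive in both. No member differed between batches at an adjusted p under 0.05, where 0.00659% of genes were called higher and 0.0329% lower in batch 2. No interaction passed either, among the members or among all genes (0%), and 0 members had an unadjusted interaction p under 0.05, against 3.47% of all genes.

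**Figure D4:**
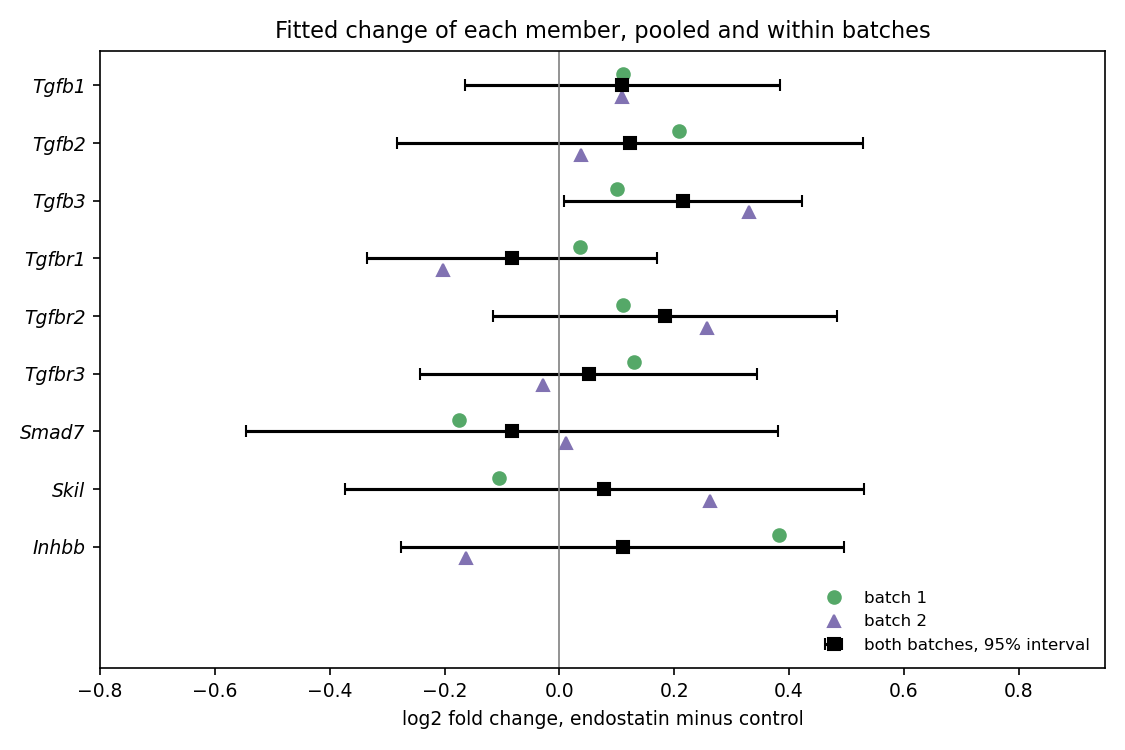
Fitted log2 fold change, endostatin minus control, of each member with its 95% interval (squares), and the values within batch 1 (circles) and batch 2 (triangles). The interval of Tgfb3 starts at 0.0089, and those of the other 8 members include 0.

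Shares within a family do not depend on the scaling of libraries, and 6 were compared after the values had been seen. Tgfb1 made up 58.3% ± 7.6 of ligand TPM after endostatin and 59.2% ± 3.2 in controls (SD, n = 4 each). The share in endostatin 2 (64.6%) includes the Tgfb1-205 estimate given above. Tgfb3 made up 32.7% ± 5.3 and 31.7% ± 3.2 in endostatin and control libraries. In endostatin 4 the share of Tgfb1 was lowest, at 48.8%, and that of Tgfb3 highest, at 39.0%. Tgfbr2 made up 40.5% ± 3.0 of receptor TPM after endostatin and 38.3% ± 4.5 in controls. The Tgfb1 share differed, endostatin minus control, by 2.74 percentage points in batch 1 and -4.59 in batch 2, and the Tgfbr2 share by -0.84 and 5.09. An exact permutation test over 70 splits that ignore batch (two-sided) gave an adjusted p of 0.857 for each of the 6 shares. Adjusted over 6, a lone share could not go below 0.171, so this test could not have called 1 share by itself.

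Around the members, 8 lists of the wider family held 118 genes, of which 103 were tested. None passed the threshold over all genes. Of the 103, 68 had positive and 35 negative log2 fold changes, with a median of 0.07. The unadjusted p was under 0.05 with a higher level in 6 genes (5.83%, against 2.3% of all genes tested) and with a lower level in 0. Bmp2, Nrros and Acvrl1 had every endostatin library above every control library, and Lefty1 had the reverse, against 0.942% and 0.698% of all genes tested.

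Among proteins that hold TGF-beta latent or release it, 18 of 20 tested genes were positive, with a median of 0.20 (0.07 in batch 1 and 0.28 in batch 2). The median was 0.032 without endostatin 4 and 0.11 without control 4. Nrros, which tethers latent TGF-beta 1 on macrophages, had 30.7, 30.1, 36.8 and 34.2 CPM in endostatin 1 to 4 and 23.9, 27.9, 23.8 and 26.2 CPM in control 1 to 4. Its log2 fold change was 0.37 ± 0.10 (unadjusted p = 0.0074, edgeR adjusted p = 1.00), beside the macrophage marker sums given above, whose part was not tested. Fbn1, the fibrillin that anchors latent complexes and is also on the fibroblast list, had 678 ± 221 CPM after endostatin and 428 ± 53 CPM in controls. Its log2 fold change was 0.62 ± 0.23 (unadjusted p = 0.0273, edgeR adjusted p = 1.00), with 0.13 in batch 1 and 1.11 in batch 2. Ltbp4, a latent TGF-beta binding protein, had 782 ± 107 and 664 ± 59 CPM in endostatin and control libraries. Ltbp3, another of these binding proteins, is named after its value was seen, as the third gene of the list at an unadjusted p under 0.05. It had 381 ± 30 and 308 ± 27 CPM in the same groups, a log2 fold change of 0.30 ± 0.11 (unadjusted p = 0.0275, edgeR adjusted p = 1.00). The 2 genes with negative values were Ltbp2 (-0.29 ± 0.25) and the integrin subunit Itgb8 (-0.36 ± 0.47). Itgb8 had 31.8 CPM in control 3, where oviduct and uterus markers were raised, and 5.12 to 7.41 CPM in the other controls. The part of that tissue in these values was not tested.

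Among other receptors 9 of 13 were positive, with a median of 0.11. Acvrl1 (ALK1), a type I receptor of endothelial cells, had 59.8, 59.1, 72.9 and 75.6 CPM in endostatin 1 to 4 and 50.7, 58.9, 58.3 and 57.5 CPM in control 1 to 4 (log2 fold change 0.24 ± 0.09, unadjusted p = 0.0238, edgeR adjusted p = 1.00). Its endothelial partner Eng had 137 ± 14 CPM after endostatin and 135 ± 22 CPM in controls. The 8 blood endothelial markers summed to 485 to 551 TPM after endostatin and 418 to 510.4 TPM in controls. Acvr1b, an activin type I receptor, had 0.27 ± 0.19, and negative values were those of Rgmb (-0.06 ± 0.14) and Bmpr1b (-0.22 ± 0.71) among others. Both Rgmb (71.3 CPM) and Bmpr1b (5.69 CPM) were highest in control 3.

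The 9 Smad and Smad anchor genes had 3 positive, 6 negative values and a median of -0.02. Smad3 had 50.9 ± 6.3 CPM after endostatin and 47.7 ± 4.5 CPM in controls, and Smad4 had 80.8 ± 4.9 and 76.7 ± 2.7 CPM in the same groups. Smad1 (-0.12 ± 0.19) and the anchor Zfyve9 (-0.15 ± 0.11) were negative, and both were highest in control 3, at 51.2 and 71.5 CPM. Of 21 other inhibitors 13 were positive, with a median of 0.05. Fst, the follistatin that traps activins, had 0.56 ± 0.29, Fstl1 had 0.35 ± 0.14 (unadjusted p = 0.0423, edgeR adjusted p = 1.00), the inhibitory Smad6 had 0.05 ± 0.13, Strap had -0.09 ± 0.09 and Tgif2 had -0.73 ± 0.71. Tgif2 had 13.1 CPM in control 3 and 1.70 to 2.62 CPM in the other controls.

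Textbook target genes of TGF-beta showed the widest split between batches. Log2 fold changes were above 0 for 16 of the 20. Their median was 0.22 over both batches, -0.02 in batch 1 and 0.48 in batch 2, the batch with endostatin 4 and control 3. The median was 0.079 without endostatin 4, 0.082 without control 4 and 0.045 without control 1 and control 4. The 9 pericyte and smooth muscle markers, of which Acta2 and Tagln are also on the target list, summed to 2481 TPM in endostatin 4, to at most 1193 TPM in the other endostatin libraries and to 904 to 1628 TPM in controls. Their part, and that of the fibroblast markers given above, was not tested. Pmepa1, a feedback inhibitor, had 112, 138, 103 and 235 CPM in endostatin 1 to 4 and 208, 98.8, 80.6 and 51.4 CPM in control 1 to 4. The groups overlapped, and the spread within each group exceeded the difference between the means. Cdkn1a, a cell cycle inhibitor, had 0.43 ± 0.20, Itgb5 0.28 ± 0.14, Ccn2 -0.03 ± 0.15 and Cdkn2b -0.13 ± 0.27.

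Ligands and targets on the bone morphogenetic protein (BMP) side were mixed. Of 11 BMP ligands 8 were positive, with a median of 0.18, and Bmp2 had 10.8 ± 1.1 CPM after endostatin and 7.99 ± 1.00 CPM in controls (log2 fold change 0.43 ± 0.14, unadjusted p = 0.0158, edgeR adjusted p = 1.00). Bmp8a had 0.90 ± 0.52, Gdf6 -0.37 ± 0.56 and Bmp7 -1.07 ± 0.65, with 12.2 CPM of Bmp7 in control 3. Of 8 BMP targets 4 were positive, with a median of -0.06. Among them Id1 had 47.4 ± 5.0 CPM after endostatin and 42.0 ± 2.4 CPM in controls, Atoh8 had 0.07 ± 0.16, Id2 had -0.53 ± 0.48 and Msx1 -1.15 ± 1.57. Msx1 stood at 145 CPM in control 3, where oviduct and uterus markers, Msx1 among them, were raised. Id2 was also highest in control 3, at 32.6 CPM. Of 5 other activin and TGF-beta type ligands 1 was positive, Inha (0.45 ± 0.37), and the median was -0.02. Lefty1 had 2.13 ± 0.26 CPM after endostatin and 2.68 ± 0.15 CPM in controls (unadjusted p = 0.149), and Gdf11 had -0.36 ± 0.32. Gdf11 had 12.1 CPM in control 3 and 4.43 to 4.70 CPM in the other controls.

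**Figure D5:**
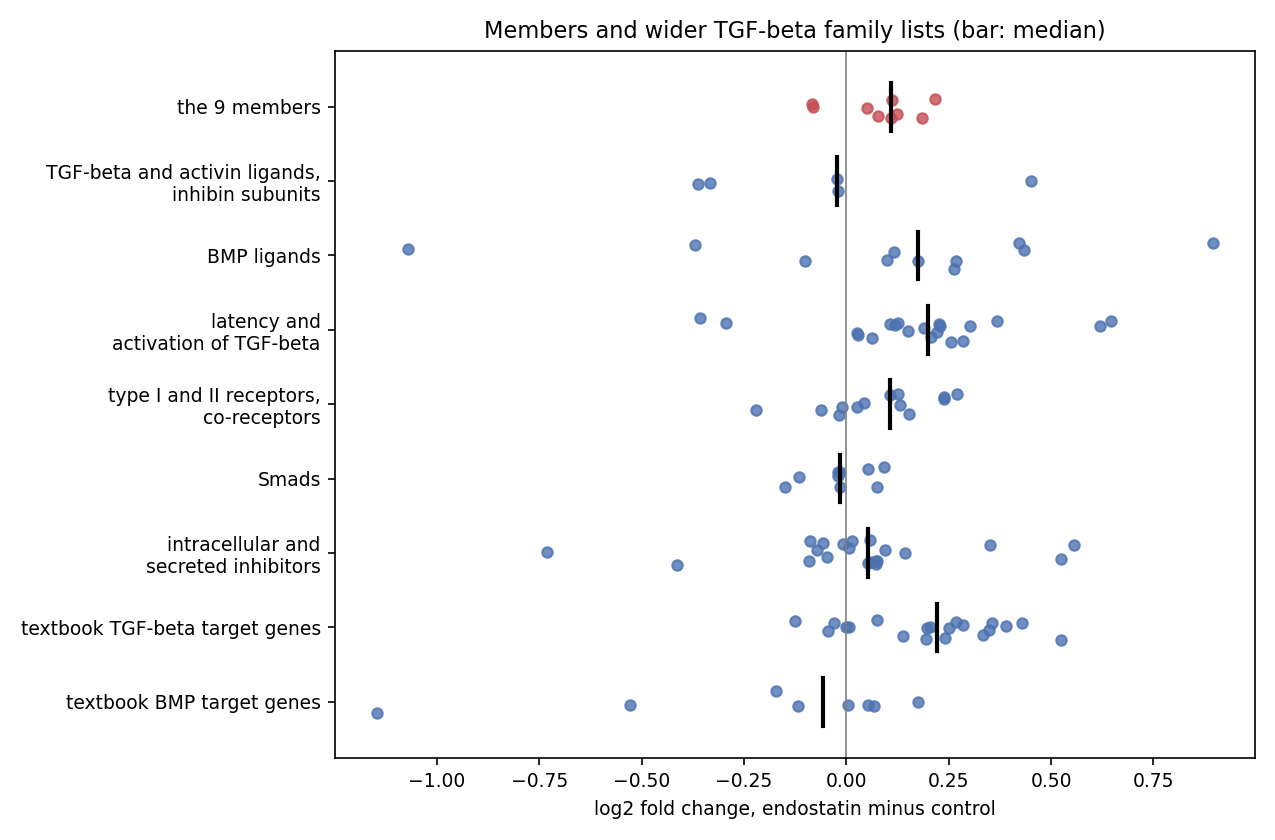
Fitted log2 fold change, endostatin minus control, of the 9 members (top) and of the tested genes of 8 wider lists, 1 point a gene, with a bar at each median. List medians lie between -0.06 and 0.22, and no gene passed the threshold over all genes.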

How the data were processed

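RNA of 8 libraries was analysed from the deposited transcript-level estimated counts, which Salmon produced with the GRCm39 build, per the submitters' processing notes. Salmon's version and settings are not stated in the labels. TPM come from the same files as deposited, scaled in the authors' run to 1000000 per library. Of 115620 transcripts, 113710 (98.35%) matched GENCODE M21 identifiers without version, used for names, transcript types and the GRCm38 exon sequences. Sums of these counts over each gene's transcripts, rounded, gave 37046 features.

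Features were filtered with filterByExpr, leaving 15184 genes, scaled by TMM, and fitted with edgeR 4.0.16 (R 4.3.3) quasi-likelihood tests, with terms for batch and treatment. Two-sided p-values were adjusted over all genes (Benjamini-Hochberg), with a threshold of 0.05. The interaction of batch and treatment gave within-batch values. The median 95% interval of genes averaging 10 CPM or more was 0.30 log2 units to either side. The fit was tested on simulated data. Alternatives used limma 3.58.1, DESeq2 1.42.0, other size factors, filters and terms, and left-out libraries.

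All members are named. Of each wider list, up to 2 genes per direction with the smallest p are named, with 8 fixed genes (1 is not reported here), and the 3 most like profiles for the members with the smallest p and the largest spread. Ltbp3, the genes whose groups do not overlap, and the transcripts Tgfbr1-202 and Tgfbr1-205 were named after their values were seen. Members and lists were chosen with earlier results of these data known. Protein sequences were not analysed here. The description of endostatin 4 repeats the read file stub of endostatin 3, but their counts differ and the labels were kept.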

Additional observations from a re-analysis of the deposited data

Results flagged for a closer look

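Tgfb1 stood at 37.3 CPM in endostatin 4, below the other 3 endostatin libraries at 47.7 to 49.7 CPM, a gap of 0.836 of the group's range. It was singled out because a library lay far from the others of its group, a rule that chance meets in about 1 of 20 groups, and 18 groups were examined. The same library had raised oviduct and uterus markers, whose part in this value was not tested.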

How the results depend on the processing

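Over 23 alternatives and a threshold of 0.1, edgeR and limma-voom called 0 genes in either direction, DESeq2 called 3 higher and 1 lower, and sample quality weights in limma-voom gave 1 higher. No member was called under any of them. Of their log2 fold changes, 197 kept their sign and 10 changed it. Without control 1 and control 4, the log2 fold change was -0.028 for Tgfb2 and -0.051 for Skil, and the medians of the activin ligand and the receptor lists moved to -0.30 and -0.013. With transcript length offsets Skil had -0.036. Leaving out each library in turn gave 0.026 (endostatin 3) to 0.19 (control 4) for Tgfb1, 0.018 (endostatin 1) to 0.22 (control 3) for Tgfb2, -0.15 (endostatin 1) to -0.0023 (control 3) for Tgfbr1, 0.10 (control 4) to 0.27 (endostatin 2) for Tgfbr2, -0.013 to 0.14 for Tgfbr3, -0.23 to 0.054 for Smad7, -0.11 to 0.21 for Skil and -0.0046 to 0.26 for Inhbb, and the cause was not tested. The batch difference of Tgfb1 was 0.0053 with relative log expression size factors, against -0.0011. Tgfb3 was positive in 23 of 23 alternatives, from 0.14 to 0.27, with an unadjusted p under 0.05 in 8. The labels do not say that replicate numbers pair libraries, and deviations of same-numbered libraries correlated at 0.24, 0.16, -0.085 and -0.34. Only control 2 correlated best with the endostatin library of its own number. With the replicate number as a block 0 genes were called, 220 higher and 87 lower genes had an unadjusted p under 0.05, against 349 and 136, Tgfb3 had 0.21 (unadjusted p = 0.0779), and no member's call changed. Leaving out 1 library gave list medians of 0.0014 to 0.15 for receptors, -0.0096 to 0.071 for inhibitors, -0.042 to 0.039 for Smads, 0.092 to 0.22 for BMP ligands, -0.13 to 0.0069 for BMP targets and -0.19 to 0.08 for activin ligands. Without control 3, 317 higher and 618 lower genes had an unadjusted p under 0.05. With 4 libraries a group, changes of a member within its 95% interval are not excluded.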

Other observations

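Control 1 held the highest level of Smad7 (45.5 CPM) among the 8 libraries, and its Pmepa1 (208 CPM) was second to endostatin 4 (235 CPM). These genes were set together after their values were seen. Cdkn1a had log2 fold changes of -0.04 in batch 1 and 0.89 in batch 2, a difference of 0.93 ± 0.22 (interaction unadjusted p = 0.00434, edgeR adjusted p = 0.997), and Fbn1 had a difference of 0.98 ± 0.31 (unadjusted p = 0.0151, edgeR adjusted p = 0.997).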
